A study of Homo sapiens with 4 samples.

Results

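Lysyl oxidases and collagen hydroxylases are the enzymes that modify and crosslink newly made collagen. The 10 genes described here were chosen by name, with earlier results of these data known. They are the lysyl oxidases LOX, LOXL1, LOXL2, LOXL3 and LOXL4 and the lysyl hydroxylases PLOD1, PLOD2 and PLOD3. With them are 2 catalytic subunits of prolyl 4-hydroxylase, P4HA1 and P4HA2. All 10 were found by symbol among the 19314 genes listed, and each had a value in all libraries. The RNA came from U87, a human glioma cell line, in which the receptor-type phosphatase gene PTPRN was knocked down by a short hairpin RNA. Total RNA was sequenced in 4 libraries, 2 of the PTPRN knockdown (titled PTP2, called shPTPRN here) and 2 of the control with a scrambled hairpin (SCR).

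Both groups were cells of the same line that carried a hairpin, and no other allele or agent is given for either. Knockdown was made with oligonucleotides ligated into the pLKO.1 vector, and the knockdown libraries bear the name of 1 hairpin only. The labels do not say whether the 2 libraries of a group came from separate cultures, so p-values measure only the spread between these libraries. The cell line is labelled U87, while the growth protocol recorded with the libraries names hCMEC/D3, a brain endothelial line. Levels are FPKM, fragments per kilobase of transcript and per unit of mapped fragments in that library, so they can be compared between genes per length.

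Collagen chains are modified in the endoplasmic reticulum before they fold. Prolyl 4-hydroxylase hydroxylates proline, which stabilizes the triple helix, and lysyl hydroxylases hydroxylate lysine, which sets where sugars and crosslinks can form. After secretion, lysyl oxidases, which need copper, oxidize lysine and hydroxylysine and so start the covalent crosslinks of collagen and elastin. In gliomas, as in other tumours, several of these genes are known as targets of the hypoxia-inducible factors (HIF), which bind DNA at a short core motif.

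Because HIF motifs are a known feature of LOX, PLOD2 and P4HA1, the copies of the core ACGTG near their starts are shown. They lie in RefSeq promoter windows of GRCh38.p14, which run from 250 bases before to 50 bases after a start, and are printed on the minus strand, the strand of the genes. Each stretch has 17 bases, with ACGTG or its reverse complement CACGT in capitals. Of the 3 LOX windows, the sites of the most upstream are given.
LOX, 185 bases before the start, chr5:122078434-122078450: tgtgcaACGTGtctggg
LOX, 116 bases before the start, chr5:122078365-122078381: gccttgCACGTttccaa
LOX, 98 bases before the start, chr5:122078347-122078363: cgcattACGTGaacaaa
LOX, 42 bases before the start, chr5:122078291-122078307: ttgcaaACGTGccagaa
PLOD2, 200 bases before the start, chr3:146161374-146161390: cctccaCACGTagccgc
PLOD2, 146 bases before the start, chr3:146161320-146161336: gtccagACGTGgggccc
P4HA1, 86 bases before the start, chr10:73096942-73096958: cgagctCACGTagcgag

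The LOX window thus held 4 copies, the PLOD2 window 2 and the P4HA1 window 1. All 7 stretches lie inside the gene spans listed with the deposited values, which reach further upstream than these starts. Windows were found for 9 of the 10 genes, 12 windows in all, and 3 of the 9 genes held ACGTG. The letters were searched on both strands, and 5 of the 12 windows held them, against 21.4% of all 35116 promoter windows, where LOX gave 3 of the 5 and its windows partly overlap. With GCGTG allowed as well, PLOD1 and LOXL3 were added, for 7 of the 12 windows against 48.4% of all windows. No copy of either was found in the windows of LOXL1, LOXL4, PLOD3 and P4HA2. A match is a description of these letters and not a measured binding site.

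The study lists as the target of its second PTPRN hairpin the 21 bases below, printed because they bear on whether the 10 genes resemble the target. That the libraries titled PTP2 carry this hairpin rests on the name only.
shPTPRN-2 target: aactgcctccaagggcatatt
The target was found whole in 4 of the 19 annotated PTPRN transcripts of GENCODE 29. In the transcripts of the 10 genes the fewest mismatches to it were 7, counted over all 21 bases without gaps. Shorter partial matches were not searched, and effects of the hairpin on genes other than PTPRN were not tested. PTPRN itself had FPKM values of 12.09 and 11.68 in the shPTPRN libraries and 84.84 and 85.02 in the SCR libraries, a log2 fold change of -2.74 (SE 0.03) with an adjusted p of 1.48e-04. The groups of the targeted gene were far apart, as their labels state.

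The libraries were similar in size. From the steps between low FPKM values the depth was estimated as 18500000 and 18300000 reads for shPTPRN and 19800000 and 18400000 for SCR. Between 11080 and 11252 genes reached an FPKM of 1 in a library. The lowest correlation of log2(FPKM + 1) across genes between libraries of a group was 0.998, and the highest between groups was 0.916, where genes are not independent replicates. No library stood apart from its group.

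Knockdown of PTPRN came with lower transcript levels of 8 of the 10 genes. LOXL1 showed the widest gap of the 10, at 10.2 times the level in SCR libraries as in shPTPRN libraries, followed by LOXL2 at 4.78 times on the FPKM scale with no pseudocount (LOXL4, at 8.25 times, rested on very few reads). PLOD2, P4HA1, PLOD1, P4HA2 and LOX fell too, by smaller amounts. PLOD3 was the only one of the 10 that rose, and LOXL3 did not pass the test. In bulk RNA, fewer cells with a transcript and less of it per cell cannot be told apart.

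These differences are log2 fold changes of FPKM + 1, shPTPRN minus SCR, tested with limma over all 16595 genes with a value. At an adjusted p of 0.05, 9 of the 10 genes were called, against 57.9% of all genes tested. Lower calls made up 8 of the 10, against 27.1% of all genes, and the 1 higher call stands beside 30.8%. Most of the 10 genes are well expressed, and among the 11480 genes with an FPKM of at least 1 in 2 libraries the shares called were 78.8% in either direction and 35.7% lower. The median log2 fold change of the 10 was -1.04, against 0.01 over all genes tested and 0.06 over those 11480.

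The study's own thresholds ask for at least a 2-fold change and an adjusted p no higher than 0.001. Under these LOXL1, LOXL2, PLOD1, PLOD2 and P4HA1 passed. With the filter of an FPKM of at least 1 in 2 libraries, 1289 of 11480 genes passed in either direction. The genes named make up 5 of the 10, each lower, where 6.69% of all genes passed in either direction and 4.06% passed as lower. This count fell to 0 when any 1 of the 4 libraries was left out, with a pseudocount of 0.1 and with the replicate block, and in these settings no gene of the table passed it. At an adjusted p of 0.05, limma still called between 7 and 9 of the 10 there. The count with a fold change of at least 2 and no test remained between 5 and 6 in the same settings. In 9 of the 10 genes the values of the groups did not overlap, which was so for 75.6% of all genes. A permutation test over 2 against 2 libraries cannot go below an exact p of 0.33, so no single value could pass 0.05 that way.

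**Figure D1:**
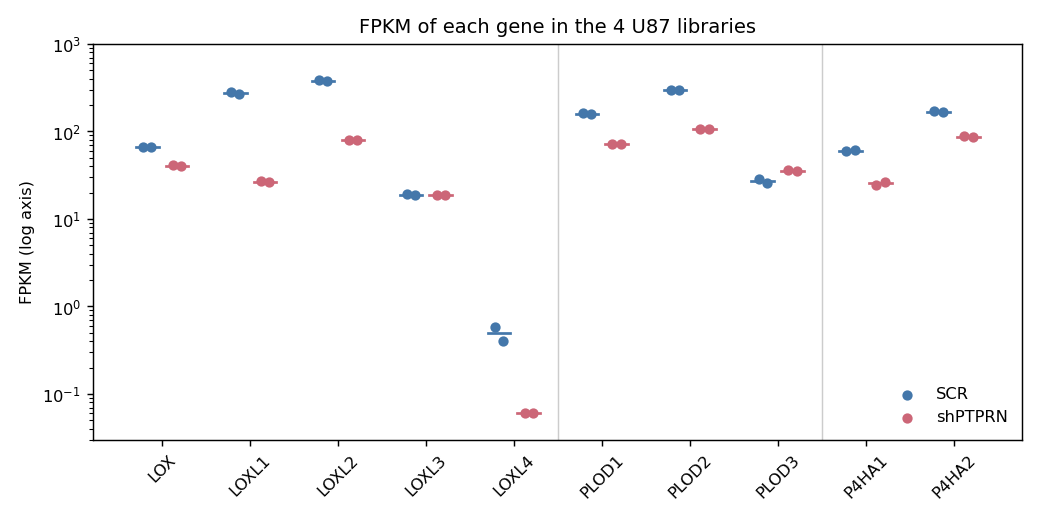
FPKM of each of the 10 genes on a log axis, with 1 point for each library, the 2 SCR libraries in blue and the 2 shPTPRN libraries in red, and a bar at each group's mean. The groups are apart in 9 genes and overlap in LOXL3, and PLOD3 is the gene with the shPTPRN points on top.

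LOX, the founding lysyl oxidase, lies on chromosome 5 (GRCh38, chr5:122063195-122078501, minus strand, Gene ID 4015). Its FPKM was 41.17 and 40.35 in the shPTPRN libraries and 66.30 and 66.54 in the SCR libraries. Both shPTPRN values were below both SCR values. The log2 fold change was -0.69 (SE 0.03, 95% interval -0.78 to -0.61, adjusted p 5.21e-04), or 1.63 times as much in SCR on the FPKM scale. This was the smallest fall among the well expressed genes of the 10 that were called lower, and LOX did not reach a fold change of 2.

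LOXL1, the family member tied most closely to elastin, lies at chr15:73926458-73952141 on the plus strand (Gene ID 4016). The shPTPRN libraries held 26.82 and 26.71 FPKM, and the SCR libraries 281.82 and 266.85. In reads, recovered from the estimated depth and the length of its only transcript, this was about 1144 and 1127 against 12868 and 11323. The values were low in both shPTPRN libraries, and the groups were separated by far more than either spread. LOXL1 fell by 3.31 on the log2 scale (SE 0.04, 95% interval -3.42 to -3.19, adjusted p 1.48e-04). Only 27 of the 16595 genes had a lower log2 fold change. In the order of all genes by mean FPKM, LOXL1 stood at place 212 in SCR and at place 2963 in shPTPRN.

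LOXL2, which crosslinks collagen IV and fibrillar collagen and is known for roles in tumour invasion, lies on the minus strand of chromosome 8 (Gene ID 4017). Levels were 79.71 and 79.59 FPKM with shPTPRN and 385.38 and 376.04 FPKM with SCR, and about 5546 and 5478 against 28698 and 26023 reads. It was the most abundant of the 10 genes in SCR, at place 145 of all genes, and stood at place 954 in shPTPRN. The log2 fold change was -2.24 (SE 0.03, 95% interval -2.33 to -2.15, adjusted p 1.49e-04), with 99 genes lower. The spread within each group was small beside this gap.

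LOXL3, a further lysyl oxidase-like enzyme, lies at chr2:74532258-74553995 (minus strand, Gene ID 84695). Its FPKM was 18.67 and 18.87 in shPTPRN and 19.51 and 18.57 in SCR. The SCR values lay on both sides of the shPTPRN values, so the groups overlapped. The log2 fold change was -0.02 (SE 0.04) with an adjusted p of 0.711, and its 95% interval, -0.13 to 0.09, bounds the difference that these libraries leave possible. Leaving out SCR replicate 1 turned the estimate to 0.01, still with no call (adjusted p 0.594).

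LOXL4 (chr10:98247686-98268250, minus strand, Gene ID 84171) was close to absent in these cells. It had 0.06 FPKM in each shPTPRN library and 0.59 and 0.40 FPKM in the SCR libraries, about 4 reads each against 42 and 27. All values were below an FPKM of 1, with the SCR values on top. The fitted log2 fold change of -0.49 (SE 0.07, 95% interval -0.70 to -0.28, adjusted p 0.00813) understates the ratio of 8.25, since the pseudocount exceeds the values. With a pseudocount of 0.1 it was -1.88, and without either of the shPTPRN libraries the call was lost (adjusted p 0.112 in both cases).

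**Figure D2:**
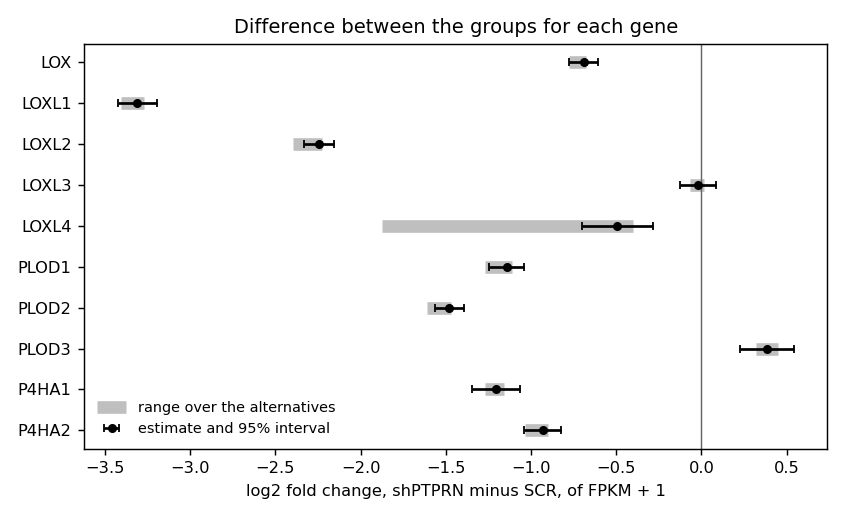
Log2 fold change of FPKM + 1, shPTPRN minus SCR, for each gene (points) with its 95% interval (black lines), and the range over the other settings tried (grey bars). Of the 10 estimates, 9 lie below 0 and PLOD3 lies above it, the interval of LOXL3 spans 0, and the grey bar of LOXL4 is long because its values are below the pseudocount.

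PLOD1, the lysyl hydroxylase that acts on lysines in the helix of fibrillar collagens, lies at chr1:11934667-11975542 on the plus strand (Gene ID 5351). It had 71.62 and 72.14 FPKM in shPTPRN and 163.27 and 156.72 FPKM in SCR. The shPTPRN libraries were the low ones, and the groups did not overlap. The log2 fold change was -1.14 (SE 0.04, 95% interval -1.24 to -1.04, adjusted p 3.45e-04), a level 2.23 times as high in SCR.

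PLOD2 hydroxylates lysines of the telopeptides, the ends of the chain where crosslinks start, and lies at chr3:146069440-146161495 (minus strand, Gene ID 5352). Its FPKM was 105.85 and 106.86 in shPTPRN and 295.64 and 300.66 in SCR, a gap with no overlap. PLOD2 fell by 1.48 on the log2 scale (SE 0.03, 95% interval -1.56 to -1.39, adjusted p 2.27e-04), the largest fall of the 3 lysyl hydroxylases. The SCR level was 2.80 times the shPTPRN level.

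PLOD3, which adds sugars to hydroxylysine as well as hydroxylating lysine, lies at chr7:101205977-101217730 (minus strand, Gene ID 8985). It went the other way, with 36.03 and 35.45 FPKM in shPTPRN against 28.42 and 25.93 FPKM in SCR, or about 1952 and 1899 against 1648 and 1397 reads. Both shPTPRN values exceeded both SCR values. The rise of 0.38 on the log2 scale (SE 0.06, 95% interval 0.23 to 0.54, adjusted p 0.00749) equals 1.32 times the SCR level. It was called with all 4 libraries but not without shPTPRN replicate 1 (adjusted p 0.102) or shPTPRN replicate 2 (adjusted p 0.0952).

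P4HA1, a catalytic subunit of prolyl 4-hydroxylase, lies at chr10:73007217-73096974 (minus strand, Gene ID 5033). The shPTPRN libraries had 24.76 and 26.46 FPKM and the SCR libraries 59.05 and 61.63 FPKM. All SCR values were above all shPTPRN values, by more than the spread in either group. The log2 fold change was -1.21 (SE 0.05, 95% interval -1.35 to -1.06, adjusted p 4.74e-04), with 2.36 times as much in SCR.

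P4HA2, another catalytic subunit, lies at chr5:132192610-132227863 (minus strand, Gene ID 8974). Its levels of 89.19 and 85.70 FPKM in shPTPRN compare with 170.08 and 165.13 FPKM in SCR. These groups did not overlap either. The log2 fold change of -0.93 (SE 0.04, 95% interval -1.04 to -0.82, adjusted p 4.78e-04), stayed short of a fold change of 2, except with quantile normalization, where it was -1.04.

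The order of the 10 genes by FPKM differed between the groups. In SCR it ran LOXL2, PLOD2, LOXL1, P4HA2, PLOD1, LOX, P4HA1, PLOD3, LOXL3 and LOXL4, from 381 ± 6.60 FPKM (SD, n = 2) for LOXL2 to 0.495 ± 0.134 FPKM (SD, n = 2) for LOXL4. In shPTPRN it ran PLOD2, P4HA2, LOXL2, PLOD1, LOX, PLOD3, LOXL1, P4HA1, LOXL3 and LOXL4, from 106 ± 0.714 FPKM (SD, n = 2) for PLOD2. No neighbours in either order had overlapping values, with only 2 libraries behind each range. LOXL1 moved furthest in the order, from the third place to the seventh.

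Summed over the family, the lysyl oxidases had 741 ± 17.8 FPKM (SD, n = 2) in SCR and 166 ± 0.601 FPKM (SD, n = 2) in shPTPRN, 4.46 times as much in SCR. The lysyl hydroxylases had 485 ± 2.84 and 214 ± 0.672 FPKM (SD, n = 2 each), 2.27 times as much in SCR. For P4HA1 and P4HA2 together the sums were 228 ± 1.68 and 113 ± 1.27 FPKM (SD, n = 2 each), a ratio of 2.02. P4HA3, a further catalytic subunit counted below with the hydroxylase partners, was not in these sums. Named after its values were seen, it had 0.05 FPKM or less in every library. All 3 families were thus lower in sum with shPTPRN, the lysyl oxidases by the largest factor.

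The make-up of the families, as percent of the summed FPKM, shifted with these unequal falls. LOXL1 made up 37.0% ± 0.538 (SD, n = 2) of the lysyl oxidases in SCR and 16.1% ± 0.0115 in shPTPRN. LOX went from 8.97% ± 0.239 to 24.6% ± 0.260, and LOXL3 from 2.57% ± 0.0279 to 11.3% ± 0.126. LOXL2 remained the largest share, at 51.4% ± 0.344 and 48.0% ± 0.123. Shares add up to a fixed total, so the shares of LOX and LOXL3 were larger while the FPKM of neither gene rose, beside the falls of LOXL1 and LOXL2.

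Among lysyl hydroxylases, PLOD2 gave 61.4% ± 1.09 (SD, n = 2) in SCR and 49.7% ± 0.178 in shPTPRN, while PLOD3 gave 5.60% ± 0.330 and 16.7% ± 0.244. PLOD1 stayed near 33%, at 33.0% ± 0.761 and 33.6% ± 0.0664. The ratio of PLOD2 to PLOD3 was 10.4 and 11.6 in the SCR libraries and 2.94 and 3.01 in the shPTPRN libraries. These enzymes work on different parts of the collagen chain, the telopeptides for PLOD2. Of the summed FPKM of P4HA1 and P4HA2, P4HA2 gave 73.5% ± 0.995 in SCR and 77.3% ± 1.32 in shPTPRN (SD, n = 2 each), a difference of 3.81 percentage points.

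**Figure D3:**
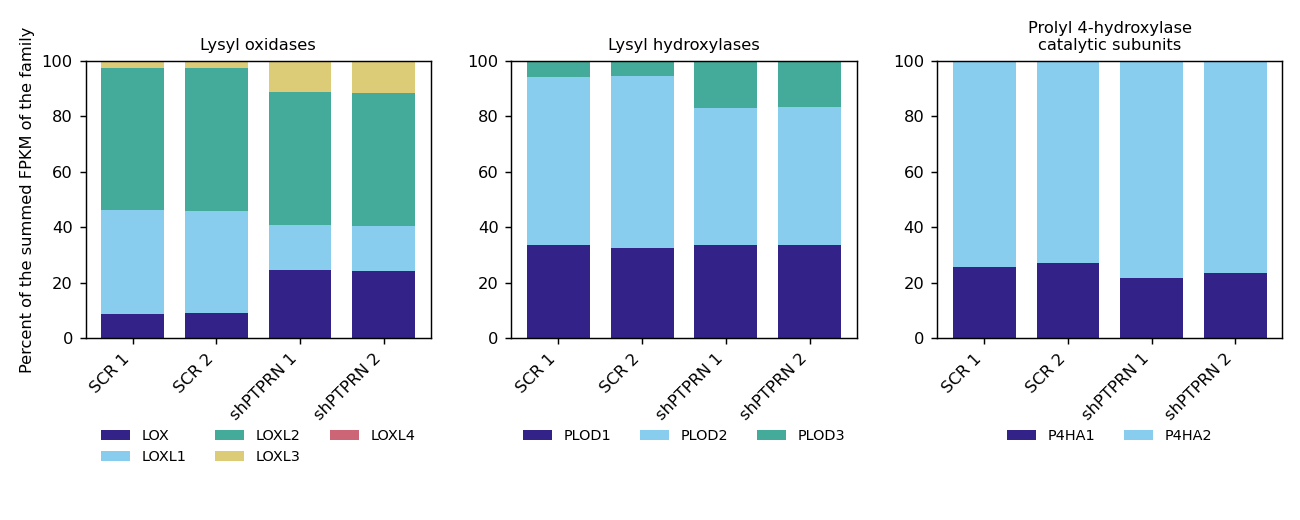
Percent of the summed FPKM of each family given by each gene, with 1 bar for each library, in 3 panels for the lysyl oxidases, the lysyl hydroxylases and the prolyl 4-hydroxylase catalytic subunits. LOXL1 narrows from 37.0% to 16.1% and PLOD3 widens from 5.60% to 16.7% between SCR and shPTPRN, while LOXL4 is too small to see.

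**Figure D4:**
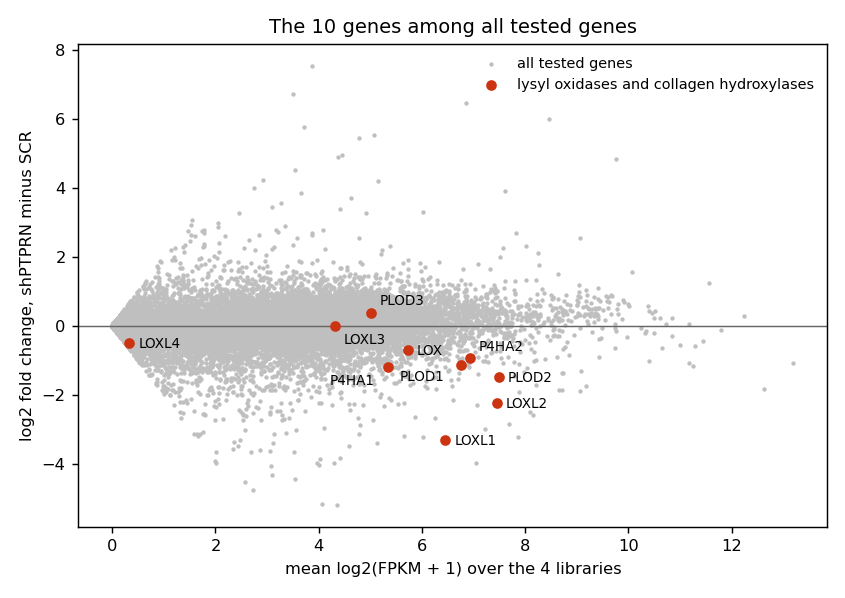
Log2 fold change, shPTPRN minus SCR, against the mean log2(FPKM + 1) of all 16595 tested genes (grey), with the 10 genes in red. LOXL1 and LOXL2 lie near the lower edge of the cloud at high expression, LOXL3 lies at 0, and LOXL4 lies at the low end of expression.

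Other genes were counted in 8 lists of 87 genes, 4 lists of the collagen pathway, 2 of HIF and 2 of cell type markers, with at most 5 named from each by size of change. Among the 16 partners of the hydroxylases and collagen folding proteins, 9 were lower, 1 was higher and 6 were not called, with a median log2 fold change of -0.22. These 10 calls of 16 are near the share of all genes called in either direction, 57.9%. The 9 lower of 16 stand beside 27.1% of all genes called lower, and the 1 higher beside 30.8% called higher. SERPINH1, the collagen chaperone HSP47, had 32.31 and 33.46 FPKM in shPTPRN and 91.11 and 88.17 FPKM in SCR, a log2 fold change of -1.42 (adjusted p 2.98e-04). P3H3 (-1.02, adjusted p 8.31e-04), P3H4 (-0.99, adjusted p 3.78e-04) and CRTAP (-0.87, adjusted p 3.64e-04), which acts in prolyl 3-hydroxylation, fell too. Of the related genes of the list, named after their values were seen, P3H1 fell (-0.62, adjusted p 0.00330), while PPIB (-0.13, adjusted p 0.0798) and P3H2 (0.12, adjusted p 0.0907) did not pass. TMEM38B, an ion channel of the endoplasmic reticulum, was the gene that rose (1.30, adjusted p 4.43e-04), joined by another without shPTPRN replicate 2, where 2 were higher.

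P4HB, protein disulfide isomerase and the second subunit of prolyl 4-hydroxylase, was named because it pairs with P4HA1 and P4HA2, outside the rule and after its values were seen. It had 338.38 and 334.86 FPKM in shPTPRN and 549.25 and 533.64 FPKM in SCR (log2 fold change -0.68, adjusted p 5.91e-04). P4HB thus fell by less than P4HA1 or P4HA2. Its level over the sum of P4HA1 and P4HA2 was 2.38 ± 0.0310 in SCR and 2.98 ± 0.0113 in shPTPRN (SD, n = 2 each).

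The substrates of the enzymes were counted next. Of the 12 fibrillar collagen and elastin genes, 6 were lower, 1 was higher and 5 were not called (median log2 fold change -0.37), and 6 of the 12 had a mean FPKM of at least 1. The 7 calls of 12 are at the share of all genes called in either direction, 57.9%. The 6 lower of 12 stand beside 27.1% of all genes called lower. COL1A1, a chain of type I collagen, had 31.32 and 33.15 FPKM in shPTPRN and 525.01 and 515.09 FPKM in SCR (log2 fold change -3.97, adjusted p 1.33e-04). COL1A2, the other chain, had 216.86 and 218.48 against 801.12 and 794.36 FPKM (-1.87, adjusted p 1.58e-04). The type V chains did not move together, with falls of COL5A1 (-2.68, adjusted p 1.48e-04) and COL5A2 (-1.53, adjusted p 2.39e-04) and a rise of COL5A3 (1.12, adjusted p 4.35e-04). The higher count was 2 without SCR replicate 2, with a pseudocount of 0.1 and with a trend in the variance.

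Set against its substrates, LOX fell by less than type I collagen. The ratio of COL1A2 to LOX was 12.0 ± 0.103 in SCR and 5.34 ± 0.104 in shPTPRN, and that of COL1A1 to LOX was 7.83 ± 0.126 and 0.791 ± 0.0430 (SD, n = 2 each). PLOD2 and COL1A2 were closer in their falls, with a ratio of COL1A2 to PLOD2 of 2.68 ± 0.0479 in SCR and 2.05 ± 0.00297 in shPTPRN (SD, n = 2 each). COL1A1 fell by far more than PLOD2, with 16.1 times as much in SCR for COL1A1 and 2.80 times for PLOD2. These are ratios of transcript levels per length and not of proteins.

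Of the 8 genes of procollagen processing, 4 were lower and 4 were not called (median -0.22), against 57.9% of all genes called and 27.1% called lower. PCOLCE, which enhances removal of the C-propeptide, had 22.56 and 18.46 FPKM in shPTPRN and 206.24 and 191.22 FPKM in SCR (log2 fold change -3.22, adjusted p 3.93e-04). BMP1, the C-proteinase that also cuts the LOX propeptide, fell by 1.47 on the log2 scale (adjusted p 3.00e-04). ADAMTS14, an N-proteinase, fell by 0.67 (adjusted p 0.00947), and PCOLCE2 had -0.07 (adjusted p 0.393). With an FPKM of at least 1 in 2 libraries as a filter, 2 were called lower.

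Among the 11 genes that organise crosslinking or deliver copper, 6 were lower, 3 were higher and 2 were not called (median -0.41). These 9 calls of 11 compare with 57.9% of all genes, of which 27.1% were lower and 30.8% higher. By the naming rule, the matrix genes that fell were LUM, a collagen-binding proteoglycan (-4.46, adjusted p 8.00e-05), FN1, fibronectin (8.16 times as much in SCR, adjusted p 1.24e-04), THBS1, thrombospondin 1 (-2.33, adjusted p 2.39e-04) and EFEMP2, or fibulin 4, which binds LOX (-0.85, adjusted p 0.00102). ATOX1, the copper chaperone that hands copper to the secretory pathway, rose (0.74, adjusted p 8.96e-04). Of the genes outside the rule, named after their values were seen, the copper importer SLC31A1 rose (0.43, adjusted p 0.00335) and the copper pump ATP7A fell (-0.41, adjusted p 0.0431), while the matrix gene FBLN5 rose (0.23, adjusted p 0.0405) below an FPKM of 1 and LTBP4 fell (-0.49, adjusted p 0.00390). The copper genes of this list did not share 1 direction. Among its matrix genes FBLN5 was the only one called higher, and those called with an FPKM above 1 fell. With the FPKM filter the higher count was 2, and with the replicate block 5 were lower and 2 higher.

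Hypoxia-inducible factors are themselves controlled by a related group of prolyl hydroxylases, the EGLN enzymes. Of 9 genes of that pathway, 4 were lower, 1 was higher and 4 were not called (median -0.12). These 5 calls of 9 stand beside 57.9% of all genes, and the 4 lower beside 27.1%. HIF1A had 156.11 and 156.83 FPKM in shPTPRN and 391.68 and 406.02 FPKM in SCR (log2 fold change -1.34, adjusted p 2.76e-04). EGLN3 had 0.02 and 0.08 against 4.73 and 5.07 FPKM (-2.49, adjusted p 2.39e-04), so it was close to absent with shPTPRN. EGLN1 fell (-0.78, adjusted p 5.46e-04), EGLN2 rose (0.39, adjusted p 0.00332) and VHL had -0.22 (adjusted p 0.0649). Without shPTPRN replicate 1 or shPTPRN replicate 2 the higher count was 0.

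All 13 of the listed HIF target genes were called lower, against 27.1% of all genes and 35.7% of those at an FPKM of 1, with a median log2 fold change of -1.01. This list was chosen with earlier results of these data known, so its count is a description only. CA9, carbonic anhydrase 9, had 15.92 and 15.34 FPKM in shPTPRN and 157.51 and 147.25 FPKM in SCR (-3.20, adjusted p 1.58e-04). Glucose and glycolysis genes were among them, SLC2A1 (-2.30, adjusted p 2.42e-04) and PFKFB4 (-1.92, adjusted p 2.39e-04), as were ANKRD37 (-1.84, adjusted p 0.00125) and NDRG1 (-1.52, adjusted p 3.10e-04). Without shPTPRN replicate 2 the count was 12. The part of HIF in the levels of LOX, PLOD2 and P4HA1 was not tested.

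**Figure D5:**
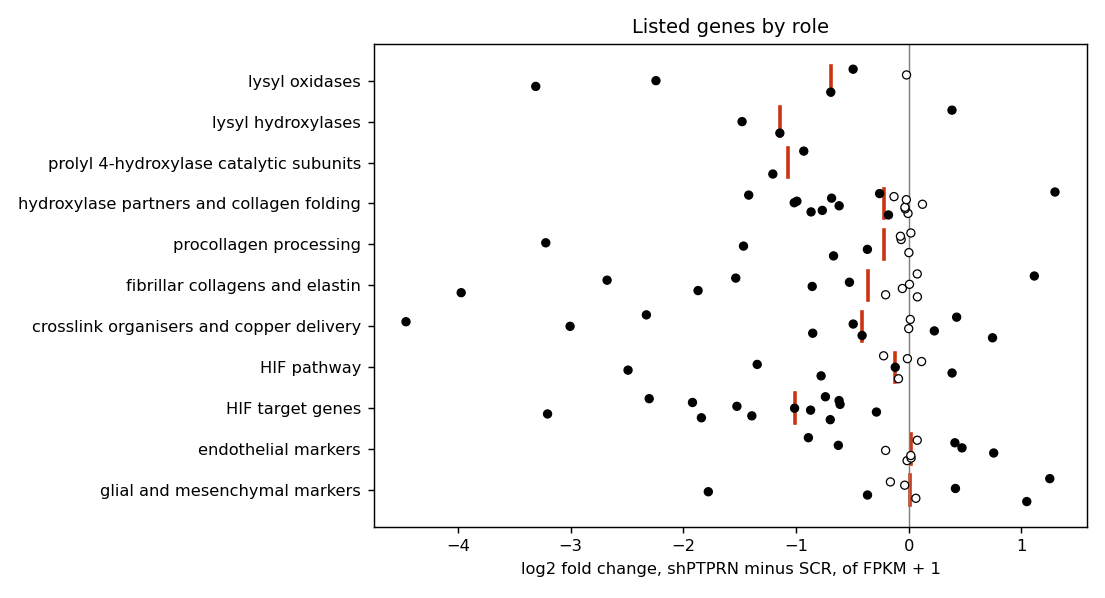
Log2 fold change, shPTPRN minus SCR, of each gene in the lists (filled points called at an adjusted p of 0.05, open points not called), with the median of each list as a red line. The HIF target genes lie below 0 in all 13 cases, with a median of -1.01, and the marker lists have medians of 0.02 and 0.01.

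Markers of other cell types were counted as well, given the mention of hCMEC/D3. Of 10 endothelial markers, 2 were lower, 3 were higher and 5 were not called, and their summed FPKM was 4.72 to 4.77 in SCR and 4.03 to 4.57 in shPTPRN. The 5 calls compare with 57.9% of all genes. Over all 4 libraries only PECAM1 averaged an FPKM of 1 or more, with 1.21 and 1.26 in shPTPRN and 2.39 and 2.50 in SCR (log2 fold change -0.62, adjusted p 7.77e-04). TEK, with a mean above 1 in shPTPRN, rose from 0.45 and 0.60 FPKM in SCR to 0.97 and 1.08 in shPTPRN (0.41, adjusted p 0.0101). The other calls, named after their values were seen, were rises of KDR (0.47, adjusted p 0.00119) and ERG (0.75, adjusted p 0.00343) and a fall of VWF (-0.89, adjusted p 3.99e-04), each below an FPKM of 1 in every library. None of the 10 was at 0 in all libraries. CDH5 and CLDN5, also named after their values were seen, were at 0.03 FPKM or below in every library, while VWF had 0.98 and 0.93 in SCR. Without SCR replicate 1 the higher count was 1, and without SCR replicate 2 the lower count was 3.

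Of the 8 glial and mesenchymal markers, 3 were higher, 2 were lower and 3 were not called, again beside 57.9% of all genes, with a summed FPKM of 2098 to 2177 in SCR and 4897 to 5100 in shPTPRN. VIM, vimentin, made up most of that sum and rose (1.25, adjusted p 3.76e-04), as did CD44 (1.05, adjusted p 3.05e-04) and OLIG2, near an FPKM of 1 (0.42, adjusted p 0.0117). NES, nestin, fell (-1.78, adjusted p 4.07e-04), and EGFR had 0.06 (adjusted p 0.414). The astrocyte markers GFAP and S100B, named after their values were seen, were below an FPKM of 1 in all libraries. Without any 1 of the 4 libraries the lower count was 1. Whether a change in the state or mix of cells had a part in the levels of the 10 genes was not tested.

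Several of the 10 genes share bases with another gene in GENCODE 29, and whether counting used strand is not given in the sources used here. PLOD3 shares 753 bases with ZNHIT1 on the opposite strand. The positions listed with the deposited values put the end of PLOD3 at 101217730 and the start of ZNHIT1 at 101217704, a far shorter overlap. ZNHIT1, a chromatin remodelling subunit, had 67.31 and 66.38 FPKM in shPTPRN and 43.65 and 43.97 FPKM in SCR. It rose as PLOD3 did (0.60, adjusted p 6.17e-04). LOXL3 shares 6665 bases with DOK1 (0.13, adjusted p 0.0414) and 935 bases with HTRA2 (0.60, adjusted p 0.00181), both on the opposite strand. LOX shares 12376 bases with SRFBP1, which rose (0.45, adjusted p 0.00809) from a much lower level, 4.05 and 4.65 FPKM in SCR, while LOX fell. In the positions listed with the values, SRFBP1 ends at 122028600 and LOX starts at 122063195, so these 2 genes do not overlap there. LOXL3 overlaps both DOK1 and HTRA2 in those positions. The part of shared reads in these values was not tested.

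For the remaining genes the overlaps were with genes not analysed here, with little-expressed neighbours or with genes that moved little. LOXL1 shares 2260 bases with the antisense gene LOXL1-AS1, which was not analysed here. LOXL2 shares bases with ENTPD4 on the same strand, whose log2 fold change was -0.24 (adjusted p 0.00691). In the positions listed with the values, LOXL2 ends at 23404209 and ENTPD4 starts at 23429152, with no overlap. P4HA2 shares 873 bases with SLC22A4 (0.14, adjusted p 0.0179) and 15784 with PDLIM4, which lay between 0.08 and 0.21 FPKM. In the listed positions neither overlaps P4HA2, which ends at 132227863, before PDLIM4 starts at 132257658 and SLC22A4 at 132294452. No gene was found to overlap PLOD1.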

How the data were processed

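RNA of 4 libraries was read from 1 end for 50 bases (BGISEQ-500). The authors deposited FPKM values per gene and library, rounded to 2 decimals, in 2 tables whose 66380 shared values did not differ. The submitters' processing notes name HISAT2 2.1.0 and hg19, while the positions listed with the genes lie on GRCh38. The counting program is not given in the sources used here. Columns of the authors' own comparisons (fold changes and p-values) were not used.

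Of 19314 genes listed, 2719 had no value. The remaining 16595 were tested on log2(FPKM + 1) with limma 3.58.1 (R 4.3.3, lmFit and eBayes with default options), group as the only term and Benjamini-Hochberg adjustment over all genes. This scale understates the change of weakly expressed genes. Read counts were not used, and depth was recovered from low FPKM values: for 133 to 143 short genes with 1 transcript, 71.4% to 79.0% of values were whole reads within rounding and 0.02 read, against 14.8% to 15.9% if evenly spaced. Sequences came from RefSeq (GRCh38.p14) and the study's oligonucleotide list. The code of the fit was run on simulated data with independent noise, which does not test whether the libraries here vary independently.

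The 10 genes and the lists were chosen with earlier results of these data known. All 10 were named, and from each other list the 5 genes with the largest absolute log2 fold change among genes whose mean FPKM reached 1 in either group, with overlapping genes and PTPRN. Alternatives were a pseudocount of 0.1, an FPKM filter, the replicate number as a block, a variance trend, quantile normalization, median-ratio scaling and each library left out.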

Additional observations from a re-analysis of the deposited data

How the results depend on the processing

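Of the 10 genes, 7 (LOX, LOXL1, LOXL2, PLOD1, PLOD2, P4HA1 and P4HA2) were called lower in each of the 10 alternatives. LOXL3 was called in none, and its sign turned without SCR replicate 1 (-0.0530 to 0.0147 over the libraries left out). The calls of LOXL4 (adjusted p 0.112) and PLOD3 (adjusted p 0.0952 to 0.102) were lost without either shPTPRN library, where the lone library is assumed to vary like the others, and LOXL4 did not pass the FPKM filter. The count at a fold change of 2 and an adjusted p of 0.001 went from 5 to 0 with a pseudocount of 0.1, and to 0 to 0 with each library left out. Over all genes that count went from 1111 to 0 in the same settings, and calls at 0.05 numbered 6181 to 6332 with a library left out. With the FPKM filter, 2 procollagen processing genes, 1 endothelial and 1 glial marker were lower and 0 endothelial markers were higher. With a pseudocount of 0.1 or a variance trend, 2 collagens were higher. Leaving out each library gave 1 to 2 higher hydroxylase partners, 1 to 2 higher collagens, 0 to 1 higher HIF pathway genes, 1 to 2 higher endothelial markers and 1 to 1 lower glial markers. Quantile normalization moved LOXL2 to 51.8% in SCR and 47.4% in shPTPRN, and PLOD2 to 49.3% in shPTPRN.

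Replicate numbers were shared across groups, but samples with the same number did not deviate together (correlation 0.0635 across 11272 genes), so they share only a number. With the replicate block 9 of the 10 genes were called at 0.05, 0 passed the stricter thresholds, and PTPRN had -2.74 (adjusted p 0.00396). Depth limits LOXL4 alone among the 10, with 4 reads in each shPTPRN library.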
